A study of Mus musculus with 12 samples.

Results

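The haemoglobin and red cell genes described here are the 4 adult globin genes of the mouse, Hbb-bs, Hbb-bt, Hba-a1 and Hba-a2, together with Alas2 and Slc4a1. They were taken by their symbols from a table of raw counts, where they make up 6 of 55487 genes, and all 6 had enough counts to be among the 18019 genes tested. Tumours came from C57BL/6J mice with the MMTV-PyMT model of breast cancer, where a viral promoter active in mammary epithelium expresses the middle T oncogene of polyomavirus, and all 12 mice carried this transgene. The first group was 6 PyMT-Bad3SA mice, whose Bad alleles encode a form of the pro-apoptotic protein BAD without its regulatory phosphorylated serines, with end points from 22.857 to 31.143 weeks. The second was 6 PyMT-Bad+/+ mice with wild-type Bad and end points from 21.286 to 27.143 weeks. Each library came from 1 mouse, and tumours are named below by genotype and replicate number. Polyadenylated RNA was sequenced from whole tumour tissue, so epithelium, stroma and the blood in the tissue were read together.

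Adult haemoglobin is a tetramer of alpha and beta chains, each holding a haem group that binds oxygen. Circulating red cells of mammals have lost their nucleus, and the youngest of them, the reticulocytes, still hold abundant globin RNA, so globin transcripts in a solid tissue are widely used as a sign of the blood it contains. Alas2 encodes the erythroid aminolevulinate synthase, the rate-limiting enzyme of haem synthesis in red cell precursors. Slc4a1 encodes the band 3 anion exchanger, the main membrane protein of the red cell, which trades chloride for bicarbonate. A shorter form of band 3 is known from acid-secreting cells of the kidney.

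The globin genes come in near-identical copies, which limits how well reads can be assigned between them. Hbb-bs (ENSMUSG00000052305) lies on the minus strand of chromosome 7 at 103826534 to 103828096 and Hbb-bt (ENSMUSG00000073940) on the same strand at 103812524 to 103813996, in GENCODE M21 on GRCm38. Both encode the adult beta chain. Their coding sequences, 441 bases without the stop codon, differ at 1 base, C417T, counted from 1 at the A of the start codon with the Hbb-bs base first. That base is the only capital in the stretches from 382 to 441 below.
Hbb-bs: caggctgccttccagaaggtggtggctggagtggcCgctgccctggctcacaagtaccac
Hbb-bt: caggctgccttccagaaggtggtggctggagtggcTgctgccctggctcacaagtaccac
Hba-a1 (ENSMUSG00000069919) lies on the plus strand of chromosome 11 at 32283511 to 32284465 and Hba-a2 (ENSMUSG00000069917) at 32296489 to 32297298, and both encode the adult alpha chain. Their coding sequences of 426 bases also differ at 1 base, C381T with the Hba-a1 base first, shown as the capital in positions 349 to 408.
Hba-a1: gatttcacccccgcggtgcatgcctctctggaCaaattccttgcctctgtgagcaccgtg
Hba-a2: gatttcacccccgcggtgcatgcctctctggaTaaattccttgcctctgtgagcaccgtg
Neither change alters the amino acid, so each pair encodes the same protein. Of all windows of 100 bases, the read length, in the longest coding transcript, 62.6% in Hbb-bs and 54.8% in Hbb-bt were found word for word in the other copy. The shares were 56.5% in Hba-a1 and 74.5% in Hba-a2. The sources used here do not say how the authors' counting treated reads that match both copies, so the level of a single copy is uncertain and the sum of a pair is safer. Alas2 (ENSMUSG00000025270, chromosome X, 150547375 to 150570638, plus strand) and Slc4a1 (ENSMUSG00000006574, chromosome 11, 102348824 to 102366203, minus strand) shared no such window with another gene. Alas2 overlaps Apex2 and Mir3620 on the opposite strand over 311 and 61 of its 2403 exon bases, and whether strand was used in counting is not known, so reads from those bases cannot be told apart.

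The sequences before the transcription starts show what the members' promoters have in common. RefSeq promoters on GRCm38.p6 were matched for 5 of the 6 genes, all except Slc4a1, and 3 are printed here, each with the 250 bases before the start. Capitals mark GATAA, the core of the site bound by GATA factors such as the erythroid regulator GATA1, and CACCC, the core of the site bound by Krüppel-like factors such as KLF1, each on either strand (TTATC and GGGTG).
Hbb-bs, chr7:103827929-103828178, minus strand: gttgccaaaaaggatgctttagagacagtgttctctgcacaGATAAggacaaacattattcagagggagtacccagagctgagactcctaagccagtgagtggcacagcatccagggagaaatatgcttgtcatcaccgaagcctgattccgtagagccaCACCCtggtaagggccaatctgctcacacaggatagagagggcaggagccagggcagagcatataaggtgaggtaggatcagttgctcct
Hba-a2, chr11:32296242-32296491, plus strand: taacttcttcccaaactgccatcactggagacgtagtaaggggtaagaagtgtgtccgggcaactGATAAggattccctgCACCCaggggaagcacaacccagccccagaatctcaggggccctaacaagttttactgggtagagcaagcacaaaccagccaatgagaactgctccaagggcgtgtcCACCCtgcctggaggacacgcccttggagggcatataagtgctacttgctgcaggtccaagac
Alas2, chrX:150547167-150547416, plus strand: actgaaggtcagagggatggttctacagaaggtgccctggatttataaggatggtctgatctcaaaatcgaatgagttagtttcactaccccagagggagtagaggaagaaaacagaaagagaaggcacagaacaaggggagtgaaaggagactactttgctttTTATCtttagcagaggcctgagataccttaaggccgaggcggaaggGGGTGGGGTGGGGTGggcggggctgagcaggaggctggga
All 5 promoters held 1 GATAA match, and all 5 held CACCC, with between 1 and 3 matches. Among 32851 RefSeq promoters of the same length, 22.6% held GATAA and 52% held CACCC. The motif CCAAT was found in the 4 globin promoters and not in that of Alas2, against 33.8% of all promoters. ATAAA was found in Hbb-bt and Alas2, against 37.3% of all, and in Alas2 1 of its matches shares bases with the TTATC match. The Hba-a1 and Hba-a2 promoters were identical at 97.6% of aligned positions and the Hbb-bs and Hbb-bt promoters at 70.9%. These are matches of letters and were not tested as binding sites.

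Library totals ran from 58096172 to 83296370 counts, and levels are given as CPM, the count scaled to the library's total, after TMM normalisation, on which 3 counts equal 0.0346 to 0.0544 CPM. Of the 18019 genes tested between the genotypes with edgeR's quasi-likelihood F test, 249 (1.38%) had a Benjamini-Hochberg adjusted p under 0.05, of which 112 were higher and 137 lower in Bad3SA tumours. An unadjusted p under 0.05, in either direction, was found for 2920 (16.2%). All 10 listed markers of luminal mammary epithelium were tested, and their summed level ran from 5463 to 7533 CPM in Bad3SA and from 5856 to 7160 CPM in Bad+/+ tumours. With no other tissue to compare, these levels could not test the tissue label. A log2 fold change above 0 below means a higher level in Bad3SA tumours.

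The 4 globin genes were on average 2.29 to 2.51 times as high in Bad3SA as in Bad+/+ tumours, but tumours within each genotype differed so widely that no member passed the test over all genes. None of the 6 genes was called by edgeR, against 1.38% of all genes tested. At an unadjusted p under 0.05 there were 5 of 6, all higher in Bad3SA, against 7.18% of all genes tested for that direction. DESeq2 called none of the 6 either, against 4.21% of the genes it tested, with its smallest adjusted p, 0.0505, for Hbb-bs. The median log2 fold change of all genes tested was 0.0033, while each of the 6 members lay above 0.8. A log2 fold change of at least 1 was found for 5 of the 6, against 3.76% of all genes tested. The 6 are not separate observations, since the globins followed each other closely from tumour to tumour and their copies share reads. They were also chosen with earlier results of these data known, so these shares are no test of the members as a set. In bulk tissue, fewer cells and less RNA per cell cannot be told apart, nor can red cells in vessels from blood lost into the tissue.

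Hbb-bs, the beta globin copy with more counts, had 41.4 CPM in the lowest, 127.7 CPM in the median and 138.1 CPM in the highest Bad3SA tumour. In Bad+/+ tumours the lowest was 13.65 CPM, the median 39.9 CPM and the highest 70.2 CPM. Bad3SA 1 to 4 all lay above every Bad+/+ tumour, at 124 CPM or more, while Bad3SA 5 and 6, at 57.6 and 41.4 CPM, lay inside the Bad+/+ range. Bad+/+ 1, 2 and 3, at 18.8, 13.65 and 25.8 CPM, lay below every Bad3SA tumour. Means were 104 ± 42.8 CPM in Bad3SA and 41.5 ± 25.1 CPM in Bad+/+ (SD, n = 6 each). The log2 fold change was 1.33 (SE 0.43, edgeR adjusted p = 0.172), which put Hbb-bs at place 925 of the genes tested when ordered by p.

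Hbb-bt, the beta globin copy with fewer counts, ranked the tumours nearly the same way. It ran from 4.54 CPM through a median of 13.1 CPM to 14.9 CPM in Bad3SA and from 1.37 CPM through a median of 3.96 CPM to 8.18 CPM in Bad+/+ tumours. Again Bad3SA 1 to 4 lay above all Bad+/+ tumours and Bad3SA 5 and 6 did not. The log2 fold change was 1.25 (SE 0.48, edgeR adjusted p = 0.238). Summing the 2 beta copies before the fit gave 115 ± 47.5 CPM in Bad3SA and 46.0 ± 28.1 CPM in Bad+/+ tumours (SD, n = 6 each), and the log2 fold change was 1.33 (SE 0.44, edgeR adjusted p = 0.172).

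**Figure D1:**
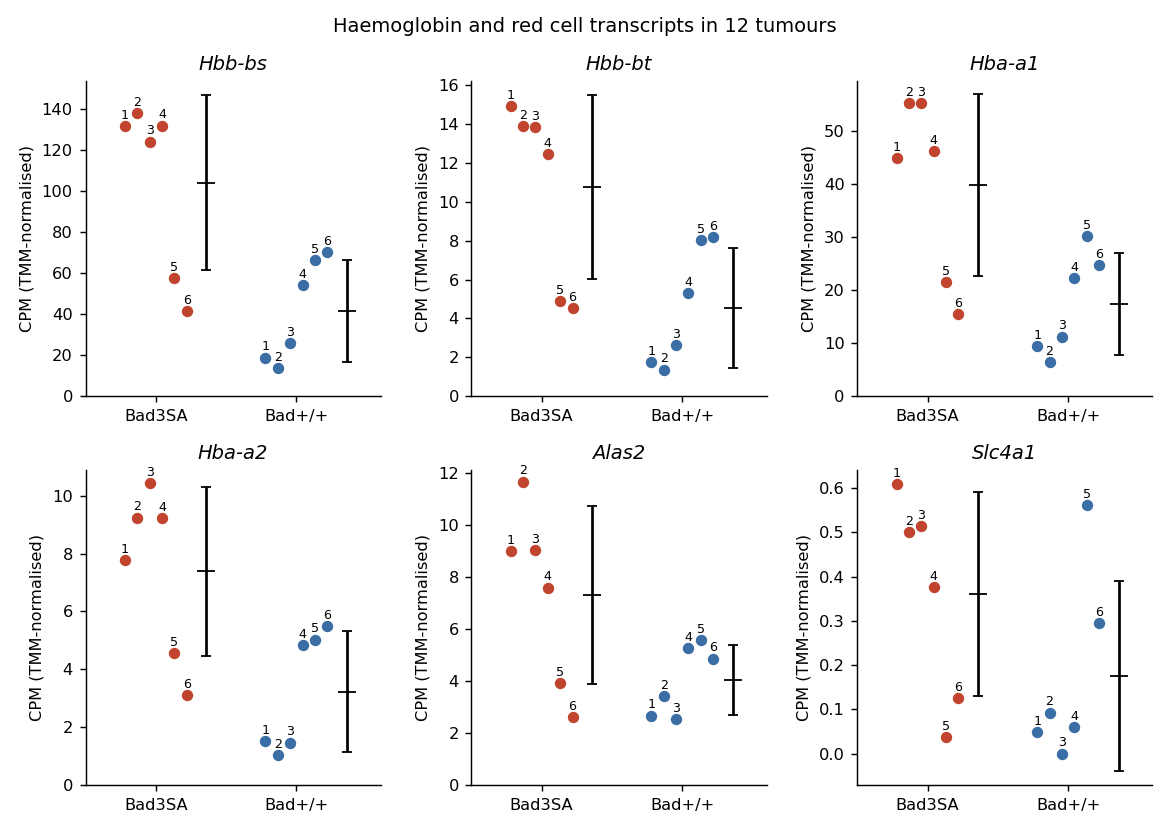
Levels of the 6 genes in CPM (TMM-normalised, linear axis), 1 panel per gene, with Bad3SA left of Bad+/+; each point is a tumour with its replicate number, and the black mark with its bar is the mean ± SD of 6 tumours, a bar that reaches below 0 for Slc4a1. Tumours 1 to 4 of Bad3SA stand above the Bad+/+ tumours for the globins and Alas2, and tumours 5 and 6 do not.

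Hba-a1, the alpha globin copy with more counts, had 15.5 CPM in the lowest, 45.6 CPM in the median and 55.3 CPM in the highest Bad3SA tumour. The Bad+/+ tumours ran from 6.41 CPM through a median of 16.7 CPM to 30.2 CPM. The groups overlapped through the same 2 Bad3SA tumours, 5 and 6. Means were 39.8 ± 17.2 CPM in Bad3SA and 17.4 ± 9.63 CPM in Bad+/+ (SD, n = 6 each), and the log2 fold change was 1.20 (SE 0.41, edgeR adjusted p = 0.187). Hba-a2, its neighbour, ran from 3.10 CPM through a median of 8.49 CPM to 10.4 CPM in Bad3SA and from 1.04 CPM through a median of 3.18 CPM to 5.49 CPM in Bad+/+ tumours. Its log2 fold change was 1.20 (SE 0.46, edgeR adjusted p = 0.234), and that of the summed alpha copies was 1.21 (SE 0.41, adjusted p = 0.187).

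Together the 4 globin genes took 0.00653% to 0.0215% of all counts in Bad3SA tumours and 0.00234% to 0.0108% in Bad+/+ tumours. The Wilson 95% intervals of these 2 highest shares were 0.0212% to 0.0218% in Bad3SA 2 and 0.0106% to 0.0111% in Bad+/+ 5; such intervals cover counting error only, and counting error was small beside the spread between mice. The summed level was 162 ± 66.9 CPM in Bad3SA and 66.6 ± 39.6 CPM in Bad+/+ tumours (SD, n = 6 each). Tumours of 1 genotype differed by more than the genotype means did: within Bad3SA the sum ran from 64.55 to 216.5 CPM and within Bad+/+ from 22.5 to 109.6 CPM. The spread within genotypes, on the log2 scale, was 0.89 for Hbb-bs, 0.97 for Hbb-bt, 0.84 for Hba-a1 and 0.90 for Hba-a2, which exceeded that of 84.8% to 89.6% of all genes tested.

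Alas2, the haem synthesis gene of the erythroid line, was less spread out in Bad+/+ tumours than the globins. It ran from 2.60 CPM through a median of 8.29 CPM to 11.7 CPM in Bad3SA and from 2.53 CPM through a median of 4.13 CPM to 5.57 CPM in Bad+/+ tumours. Bad3SA 1 to 4 lay above all Bad+/+ tumours, and Bad3SA 6 was near the bottom of the Bad+/+ range. Means were 7.29 ± 3.42 CPM in Bad3SA and 4.05 ± 1.35 CPM in Bad+/+ (SD, n = 6 each). The log2 fold change was 0.85 (SE 0.35, edgeR adjusted p = 0.263).

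Slc4a1 was barely present, with 155 counts over the Bad3SA tumours together and 74 over the Bad+/+ tumours. It had 2 counts in the lowest Bad3SA tumour and 45 in the highest, or 0.0363 CPM, a median of 0.438 CPM and 0.609 CPM. In Bad+/+ tumours it ran from 0 counts to 40, or from 0 CPM through a median of 0.0759 CPM to 0.561 CPM. A count of 0 in Bad+/+ 3 allows up to 0.0365 CPM. Bad3SA 5 and Bad+/+ 3 were at or under the level of 3 counts, and only Bad3SA 1 lay above every Bad+/+ tumour. The log2 fold change was 1.05 (SE 0.82, edgeR adjusted p = 0.527), and without Bad+/+ 5, the highest of its group, it was 1.89 (adjusted p = 0.372).

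Per kilobase of exon, levels fell into an order that was the same in both genotypes. Hbb-bs was highest, at 135.5 ± 55.7 CPM per kilobase in Bad3SA and 54.0 ± 32.6 in Bad+/+ tumours. Hba-a1 followed at 49.0 ± 21.1 in Bad3SA and 21.4 ± 11.9 in Bad+/+, then Hbb-bt at 15.3 ± 6.76 and 6.46 ± 4.38, and Hba-a2 at 11.1 ± 4.38 and 4.84 ± 3.13, each with Bad3SA before Bad+/+ (SD, n = 6 each). The level of Hbb-bt lay within the spread of that of Hba-a2 in each genotype, and the shared sequence leaves the place of single copies uncertain. Alas2 stood at 3.04 ± 1.42 CPM per kilobase in Bad3SA and 1.69 ± 0.561 in Bad+/+ tumours, and Slc4a1 at 0.0736 ± 0.0471 and 0.0360 ± 0.0439 in the same order.

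End-point age moved the genotype difference upward. With age as a covariate the log2 fold change was 2.01 for Hbb-bs (SE 0.51, edgeR adjusted p = 0.168), 2.05 for Hbb-bt, 1.75 for Hba-a1, 1.79 for Hba-a2, 1.11 for Alas2 and 1.91 for Slc4a1, and again none was called, against 0.405% of all genes. Over all 12 tumours no relation with age was found: Pearson's r of log2 CPM with age ran from -0.10 for Slc4a1 to 0.11 for Hba-a2, and Spearman's rho from -0.12 to 0.11 (adjusted permutation p of 0.968 for every r and 0.86 for every rho, over 6 relations, 100000 resamples). Without the 2 mice farthest from the median age, Bad3SA 5 and Bad+/+ 6, r ran from 0.15 to 0.22. Within genotypes every r was negative, from -0.76 to -0.47 in Bad3SA and from -0.58 to -0.11 in Bad+/+ tumours (n = 6 each, no test). The oldest mouse, Bad3SA 5, had low and the youngest, Bad+/+ 6, high globin levels for its genotype.

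**Figure D2:**
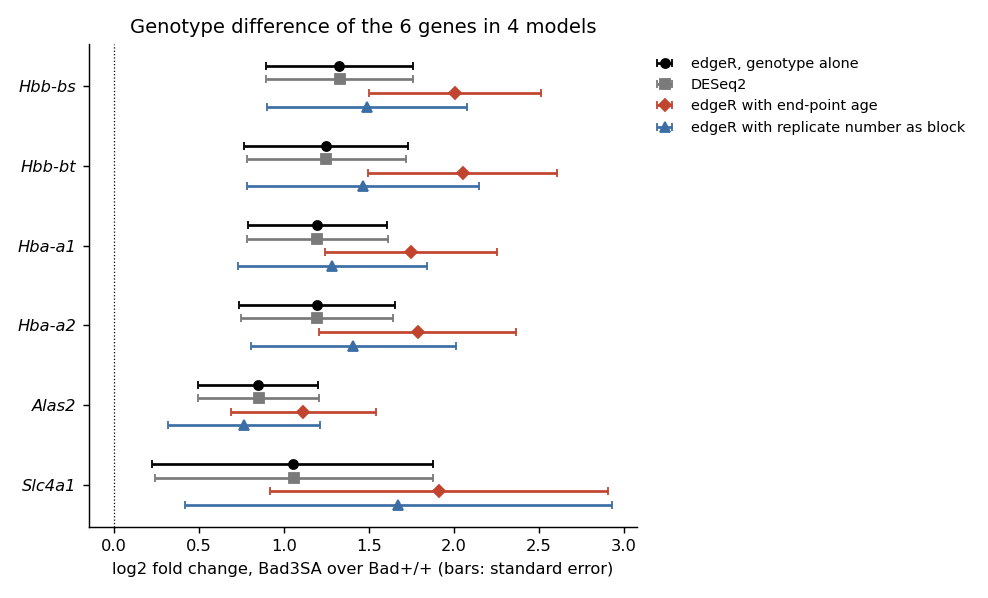
Log2 fold change of Bad3SA over Bad+/+ (horizontal axis, bars are the standard error) for the 6 genes in 4 models: edgeR on genotype alone, DESeq2, edgeR with end-point age, and edgeR with the replicate number as a block. Every estimate lies above 0; those with age lie highest for each gene, with Hbb-bs at 2.01 against 1.33 on genotype alone, and the bars of Slc4a1 are the longest.

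In the authors' deposited table, whose fold changes are Bad+/+ over Bad3SA, the log2 fold change of Hbb-bs was -1.05 with an adjusted p of 0.0521. The authors' deposited table gives -0.97 for Hba-a1, -0.95 for Hbb-bt, -0.93 for Hba-a2, -0.72 for Alas2 and -0.54 for Slc4a1, with adjusted p values between 0.0744 and 0.532. None of the 6 is under 0.05 there, and the sign places each higher in Bad3SA. The deposited fold changes and standard errors were both smaller in size than those of DESeq2 here, at nearly the same p. For Hbb-bs the standard error was 0.342 in the deposited values and 0.432 here, with an unadjusted Wald p of 0.00215 and 0.00213. The 2 sets are therefore on unlike scales, and their sizes are not compared.

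The composition of the red cell signal was then compared within each tumour, since a ratio of counts from 1 library does not depend on its depth. All 5 ratios were tested with an exact two-sided permutation test on the log2 scale, with p-values adjusted over them, and none passed. Alpha over beta globin counts averaged 0.411 ± 0.0398 in Bad3SA and 0.464 ± 0.0489 in Bad+/+ tumours (SD, n = 6 each), a log2 difference of -0.17 (exact permutation p = 0.0671, adjusted p = 0.168). Hbb-bt made up 9.29% ± 0.926 of beta globin counts in Bad3SA and 9.50% ± 0.906 in Bad+/+ (exact permutation p = 0.69, adjusted p = 0.788). Hba-a2 made up 15.95% ± 1.21 of alpha globin counts in Bad3SA and 14.9% ± 2.58 in Bad+/+ (exact permutation p = 0.361, adjusted p = 0.603). Over single tumours the Hbb-bt share ran from 7.84% to 10.2% in Bad3SA and from 8.49% to 10.8% in Bad+/+, and the Hba-a2 share from 14.3% to 17.5% in Bad3SA and from 11.5% to 18.2% in Bad+/+.

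Alas2 relative to globin gave the largest difference of the 5 ratios. Alas2 had 44.3 ± 5.44 counts per 1000 globin counts in Bad3SA and 75.8 ± 39.8 in Bad+/+ tumours (SD, n = 6 each), a log2 difference of -0.65 (exact permutation p = 0.0152, adjusted p = 0.0758). The Bad3SA tumours ran from 37.98 to 53.9, and the Bad+/+ tumours from 44.7 in tumour 6 to 152 in tumour 2, the tumour with the least globin, so the groups overlapped. Apex2, whose exons overlap those of Alas2, was at 10.2 to 13.7 CPM in Bad3SA and at 9.41 to 21.9 CPM in Bad+/+ tumours. It was at 10.2 CPM in Bad+/+ 2 and highest in Bad+/+ 5 and 6, which had the lowest Alas2 ratios and also the most globin of their genotype. Whether Apex2 reads entered the Alas2 counts was not tested. With single tumours left out, the adjusted p of the Alas2 ratio (exact permutation) ran from 0.0433, without Bad3SA 2 or without Bad+/+ 6, to 0.1515. It was not under 0.05 in the other 10 runs. The adjusted p of the alpha to beta ratio ran from 0.0433 to 0.3355. It was under 0.05 only without Bad+/+ 6, where the log2 difference was -0.23, and not in the other 11 runs. Slc4a1 had 2.08 ± 0.873 counts per 1000 globin counts in Bad3SA and 2.50 ± 1.99 in Bad+/+, where the log2 difference that was tested was 0.26, of opposite sign to the difference of these means (exact permutation p = 0.788, adjusted p = 0.788).

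**Figure D3:**
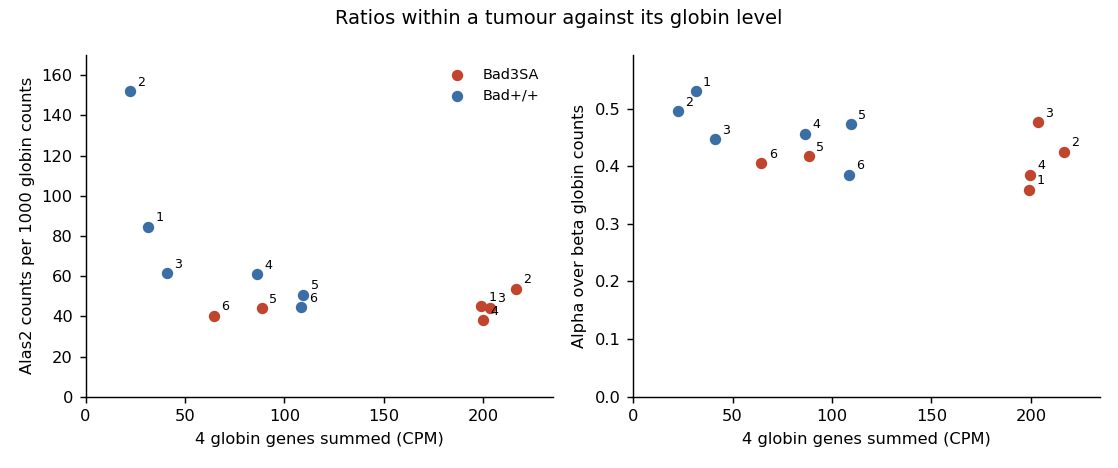
Alas2 counts per 1000 globin counts (left) and alpha over beta globin counts (right), each against the 4 globin genes summed in CPM, with 1 point per tumour, its replicate number, and colour for genotype. Bad+/+ 1 and 2, with the lowest globin levels, have the highest Alas2 ratios, 84.6 and 152, while the other tumours lie between 37.98 and 61.5.

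The members followed each other from tumour to tumour, most tightly among the globins. By Hbb-bs the tumours fell into 4 between 124 and 138.1 CPM, all Bad3SA, and 8 at or below 70.2 CPM. Correlations with Hbb-bs had been planned over all 12, where the gap between these sets can raise r, and are given mainly over the 8. Over the 8, which hold Bad3SA 5 and 6 and all Bad+/+ tumours, log2 CPM of Hba-a1 had an r of 0.99 and a rho of 0.95 with Hbb-bs (exact permutation p, adjusted over 9 relations, of 0.000446 and 0.00513). Hbb-bt had an r of 0.99 and a rho of 0.98 (exact permutation, adjusted p = 0.000446 and 0.00357); it shares reads with Hbb-bs. Without the 2 tumours farthest from the median of Hbb-bs, r was 0.96 for Hba-a1 and 0.95 for Hbb-bt. Within Bad3SA r was 0.98 for both, and within Bad+/+ it was 0.99 for Hba-a1 and 0.995 for Hbb-bt. These 8 tumours were set off by their Hbb-bs level, after the values were seen, and hold both genotypes. The p-values over them, here and below, are therefore only a description.

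Alas2 and Slc4a1 followed Hbb-bs more loosely. Over the 8 tumours Alas2 had an r of 0.68 and a rho of 0.67 (exact permutation, adjusted p = 0.103 and 0.15), and an r of 0.86 without the 2 tumours farthest from the median. Within genotypes its r was 0.98 in Bad3SA and 0.82 in Bad+/+ tumours (n = 6 each). For Slc4a1 r was 0.49 and rho 0.48 over the 8 (exact permutation, adjusted p = 0.284 and 0.312), 0.77 without the 2 farthest, 0.86 within Bad3SA and 0.60 within Bad+/+. Over all 12, as planned and with the gap in Hbb-bs included, r was 0.878 for Alas2 and 0.755 for Slc4a1 (permutation, adjusted p = 0.00087 and 0.00932). When the Hbb-bs level entered the genotype model as a covariate, the log2 fold changes of the other members were near 0 or below: -0.15 for Hbb-bt, -0.09 for Hba-a1, -0.07 for Hba-a2, -0.14 for Alas2 (SE 0.34) and -0.69 for Slc4a1 (SE 0.84). For the globins this was bound to follow from their close correlation with Hbb-bs, and Hbb-bt also shares reads with it.

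Other genes of the red cell line did not share the members' pattern as a group. Of 36 erythroid genes listed, 35 were found in the table under their symbol, and Ahsp, the alpha globin chaperone, was not analysed here. Of the 26 with enough counts for the test, 13 had a higher and 13 a lower mean estimate in Bad3SA, while 50.4% of all genes tested had a higher one. EdgeR called 1 of the 26 higher and none lower, against 1.38% of all genes tested. DESeq2 called 1 of 30 higher and none lower, against 4.21% of the genes it tested. The median log2 fold change in edgeR was -0.02, against 0.0033 over all genes tested. Many of these genes, such as Bpgm, Fech, Mkrn1 and Xpo7, are also active outside red cells, and the summed level of the list ran from 770 to 1046 CPM in Bad3SA and from 811 to 1030 CPM in Bad+/+ tumours.

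The single erythroid call was Hemgn, which encodes hemogen, a nuclear protein of blood progenitors. It ran from 0.162 CPM through 0.332 CPM to 0.563 CPM in Bad3SA and from 0.0447 CPM through 0.110 CPM to 0.147 CPM in Bad+/+ tumours, and the groups did not overlap, which held for 2.23% of all genes tested. The log2 fold change was 1.75 (SE 0.39, edgeR adjusted p = 0.0444), on 142 counts in Bad3SA against 47 in Bad+/+ tumours. Over the alternatives run, its adjusted p ranged from 0.00213 with DESeq2 to 0.389 with age as a covariate, and it was no longer called in 14 of 20 of them. Its order was not that of the globins: Bad3SA 4 and 5 were highest and Bad3SA 1 lowest, and its slope on Hbb-bs within genotypes was -0.05. Add2 and Tmod1, genes of the membrane skeleton, had log2 fold changes of -1.07 and -1.24 (edgeR adjusted p = 0.244 and 0.287).

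Several regulators and membrane genes of red cell precursors had few counts. Gata1, the master regulator of the erythroid line, had 49 counts over the Bad3SA tumours and 13 over the Bad+/+ tumours, and its partner Gfi1b had 34 and 12. Rhag had 22 and 18 counts, Kel 16 and 3, Car1 8 and 2, Epb42 7 and 3, Trim58 4 and 3, and Cldn13 1 and 1, each with Bad3SA before Bad+/+. None of these 8 passed the filter on low counts, so none was tested by edgeR. Others in the list were well above the level of 3 counts. Klf1, the erythroid Krüppel-like factor, had 0.571 CPM in Bad3SA and 0.415 CPM in Bad+/+ (log2 fold change 0.46, edgeR adjusted p = 0.458), and Tal1, a regulator shared with other blood lineages, had 0.938 CPM in Bad3SA and 0.937 CPM in Bad+/+ (log2 fold change 0.0015, edgeR adjusted p = 0.999).

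Embryonic and theta-like globin genes had few counts. Hbb-y, Hbb-bh1 and Hbb-bh2, the embryonic beta-like genes of the yolk sac, had 0 counts in all 12 tumours, which allows at most 0.0346 to 0.0544 CPM per tumour. Hba-x, the embryonic alpha-like gene, had 2 counts in Bad3SA and 0 in Bad+/+ tumours. The theta-like genes had 4 counts in Bad3SA and 3 in Bad+/+ for Hbq1a, and 8 in each for Hbq1b. The 6 genes together reached 0.110 CPM in Bad3SA 4 and 0.112 CPM in Bad+/+ 5, above the level of 3 counts in those libraries, 0.047 and 0.0421 CPM. The adult globins, in contrast, had 68195 counts over the Bad3SA tumours and 28177 over the Bad+/+ tumours.

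The other haem synthesis genes work in every nucleated cell, and none of the 10 tested was called by edgeR or DESeq2. In edgeR 1 of the 10 had an unadjusted p under 0.05, against 16.2% of all genes tested. Their median log2 fold change was 0.15, with 7 above and 3 below 0. Those printed here, among the genes with the smallest p, were Urod, at 0.29, Abcb10, at -0.27, and Uros, at 0.35 (edgeR adjusted p = 0.282 to 0.326). Their summed level ran from 405 to 502 CPM in Bad3SA and from 376 to 457 CPM in Bad+/+ tumours, far less than the several-fold range of Alas2.

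Genes that take up and break down haem and store iron were set beside the globins as the downstream side of red cell turnover. EdgeR called none of the 16 it tested, with 4 at an unadjusted p under 0.05, against 16.2% of all genes tested. DESeq2 called 2 of 18, Hmox1 and Ftl1, both higher in Bad3SA, against 4.21% of the genes it tested. In edgeR 10 had estimates above and 6 below 0, with a median log2 fold change of 0.27. Their summed level lay the other way, from 8982 through a median of 10700 to 12490 CPM in Bad3SA and from 11890 through 12650 to 15150 CPM in Bad+/+ tumours, and most of it was Trf, the transferrin gene, at 7096 ± 1460 CPM in Bad3SA and 9578 ± 1048 CPM in Bad+/+ (SD, n = 6 each). Hmox1, which encodes haem oxygenase, the enzyme that opens the haem ring, ran from 26.1 CPM through 52.9 CPM to 93.2 CPM in Bad3SA and from 20.1 CPM through 25.8 CPM to 32.6 CPM in Bad+/+ tumours. Bad3SA 1, 2 and 3 stood above the rest, at 73.8, 93.2 and 79.7 CPM, and the other Bad3SA tumours lay inside the Bad+/+ range. Its log2 fold change was 1.10 (SE 0.31, edgeR adjusted p = 0.117), and DESeq2 called it (adjusted p = 0.0294; the range over the alternatives run was 0.0294 to 0.606). With Hbb-bs as a covariate its log2 fold change was 0.33 (SE 0.36, adjusted p = 0.606). Over the 8 tumours below the gap in Hbb-bs, Hmox1 had an r of 0.91 and a rho of 0.76 with Hbb-bs (exact permutation, adjusted p = 0.00625 and 0.0827), with an r of 0.69 without the 2 farthest, 0.75 within Bad3SA and 0.91 within Bad+/+. Ftl1, the ferritin light chain gene, had a log2 fold change of 0.48 (edgeR adjusted p = 0.101), with an adjusted p of 0.0373 in DESeq2 and of 0.0483 in edgeR without Bad+/+ 6. Hp, which encodes the haemoglobin scavenger haptoglobin, had 1.71 and Trf -0.43 (edgeR adjusted p = 0.204 and 0.186).

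**Figure D4:**
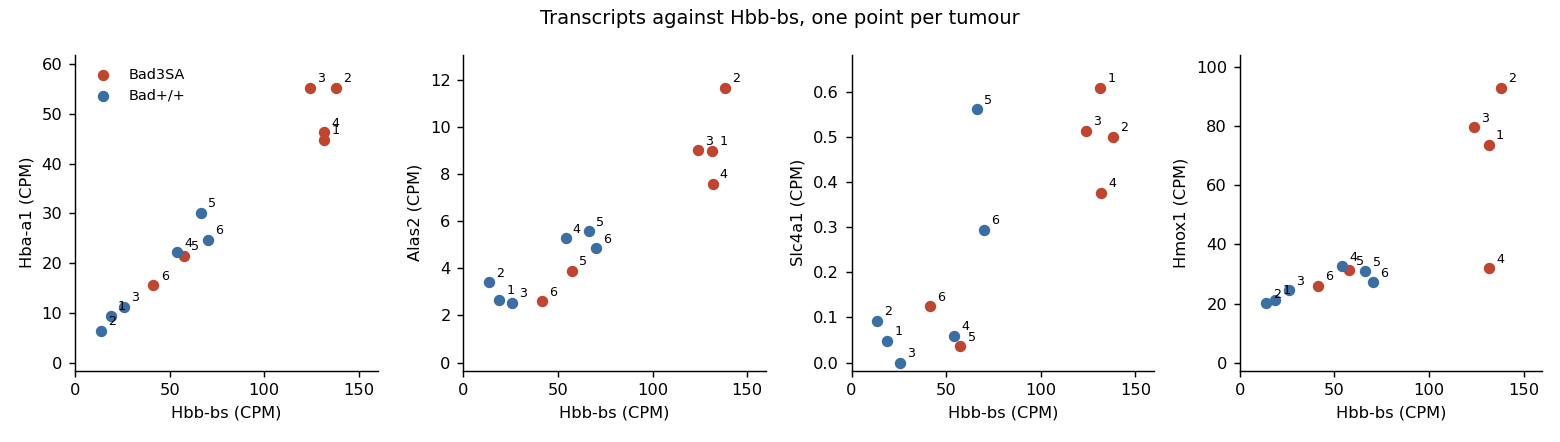
CPM of Hba-a1, Alas2, Slc4a1 and Hmox1 (vertical axes, from left to right) against CPM of Hbb-bs, with 1 point per tumour, its replicate number, and colour for genotype. Hba-a1 rises nearly in a line with Hbb-bs in both genotypes, Alas2 and Slc4a1 scatter more, and Hmox1 is above 70 CPM in 3 of the 4 tumours with the most Hbb-bs and 31.9 CPM in the other, Bad3SA 4.

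Blood also carries platelets and white cells, and their transcripts were compared with the globins on the same 12 tumours. Of 8 platelet genes tested by edgeR none was called, nor was any by DESeq2. In edgeR 3 of the 8 had an unadjusted p under 0.05, against 16.2% of all genes tested, with 5 estimates above and 3 below 0 and a median of 0.58. Their summed level ran from 63.8 to 136 CPM in Bad3SA and from 90.0 to 134 CPM in Bad+/+ tumours. Ppbp, a chemokine stored in platelets, had 0.240 CPM in Bad3SA and 0.0891 CPM in Bad+/+ (log2 fold change 1.42, edgeR adjusted p = 0.238). The list's most abundant named gene, Itgb3, also made by other cell types, had -0.40 (edgeR adjusted p = 0.264). Pf4, another platelet chemokine, had an r of 0.23 and a rho of -0.10 with Hbb-bs over the 8 tumours (exact permutation, adjusted p = 0.587 and 0.84).

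In edgeR, neutrophil, B cell and vessel genes likewise gave no call, in 8, 4 and 14 genes tested. Of these, 1, 0 and 1 had an unadjusted p under 0.05, against 16.2% of all genes tested. DESeq2 called 1 of 14 vessel genes, Egfl7, and no neutrophil or B cell gene, against 4.21% of the genes it tested. The neutrophil list had 5 estimates above and 3 below 0 and summed to between 2491 and 3766 CPM in Bad3SA and between 204.5 and 3966 CPM in Bad+/+ tumours, most of it Ltf, the lactoferrin gene, which mammary epithelium also makes. S100a8, a calcium-binding alarmin of neutrophils, had an r of 0.73 and a rho of 0.83 with Hbb-bs over the 8 tumours (exact permutation, adjusted p = 0.0632 and 0.0461). Without the 2 farthest r was 0.58, and it was 0.36 within Bad3SA and 0.78 within Bad+/+. Over all 12 tumours, as planned, S100a8 had an r of 0.47 and a rho of 0.52 (permutation, adjusted p = 0.162 and 0.108). Its mean was lower in Bad3SA, at 7.58 ± 3.79 CPM, against 13.9 ± 18.7 CPM in Bad+/+ (log2 fold change -0.87, edgeR adjusted p = 0.531), the other way from the globins; without Bad+/+ 4 the log2 fold change was 0.24. Cd79a, of the B cell receptor, had an r of 0.73 and a rho of 0.62 (exact permutation, adjusted p = 0.0632 and 0.172), and 0.08 without the 2 farthest, so its r rests on those tumours; r was 0.09 within Bad3SA and 0.70 within Bad+/+. The B cell genes summed to between 1.72 and 3.06 CPM in Bad3SA and between 0.931 and 2.54 CPM in Bad+/+ tumours.

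Endothelial genes, which stand for the vessels that hold the blood, summed to between 168 and 337 CPM in Bad3SA and between 169 and 307 CPM in Bad+/+ tumours, with a median log2 fold change of 0.12. Egfl7, a secreted vessel protein, had the smallest p among them, at a log2 fold change of 0.60 (edgeR adjusted p = 0.1497), and DESeq2 called it higher in Bad3SA (adjusted p = 0.0443). Pecam1, a junction protein of vessel walls, had an r of 0.27 and a rho of 0.10 with Hbb-bs over the 8 tumours (exact permutation, adjusted p = 0.578 and 0.84). Macrophage genes, which include those of the cells that clear aged red cells, gave no call in 10 tested by edgeR and none by DESeq2. In edgeR none had an unadjusted p under 0.05, against 16.2% of all genes tested. Their median log2 fold change was 0.22, and they summed to between 565 and 1409 CPM in Bad3SA and between 499 and 1403 CPM in Bad+/+ tumours. The median of the summed globins was 199 CPM in Bad3SA and 63.8 CPM in Bad+/+ tumours, where the medians were 95.5 and 118 CPM for the platelet genes, 223 and 229 CPM for the endothelial genes and 945 and 885 CPM for the macrophage genes, each with Bad3SA before Bad+/+. What part the amount of blood had in the globin difference was not tested.

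Across all genes, the slope on Hbb-bs was fitted with genotype in the model to ask which transcripts went with globin level within a genotype. Of 18013 genes other than the members, 0 were called by edgeR (0%), with 2447 (13.6%) at an unadjusted p under 0.05; DESeq2 was not run for the slope. In the erythroid list 6 of 26 genes had an unadjusted p under 0.05, all with a positive slope. Among them were Bpgm, the red cell bisphosphoglycerate mutase gene, with a slope of 0.30 log2 units per log2 unit of Hbb-bs (SE 0.11, edgeR adjusted p = 0.295), and Xpo7 at 0.19. Of the 8 platelet genes 1 had an unadjusted p under 0.05 and a negative slope (Itga2b, -0.73), of the neutrophil genes 2 of 8 with positive slopes, Mmp8 at 0.84 and S100a8 at 1.09, and of the endothelial genes 2 of 14 with positive slopes, Vwf at 0.43 and Cldn5 at 0.32. With the Alas2 level in place of Hbb-bs, 399 genes were called, 182 with positive and 217 with negative slopes, and without Bad3SA 4 the slope on Hbb-bs gave 56 calls, so the count depends on which member and which tumours carry the slope.

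The genes most like the members were found by the correlation of log2 CPM over the 12 tumours with the mean of the 6 members' standardised levels, among the 12942 genes whose mean log2 CPM was 0 or more. Among the 10 highest were Krt15 (r = 0.87), Mgam (0.86), Arl4c (0.85), Lurap1l (0.84), Adam8 (0.84) and Hmox1 (0.83), followed by Tecpr2, Procr and Adamtsl4 (each 0.83). Of these, only Hmox1 belongs to the lists used here. These values are a description of 12 libraries of which 4 stand together at high globin, and the differences between them are small. After each genotype's mean was subtracted, the 10 highest included Egr3 (0.95), Ctnna1 (0.94), Aplp2 and Plxna1 (each 0.93), Vdr and Pros1 (each 0.92), and Myo1e, Midn and Junb (each 0.91). No gene stood in both lists of 10.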

How the data were processed

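RNA of 12 tumours, 6 per genotype, was grouped by the sample titles. The authors deposited raw read counts per gene and tumour. Per the submitters' processing notes, GRCm38, STAR 2.7.9a, fastp 0.23.1 and DESeq2 were used; the sources used here name no counting tool, annotation or strand setting. The authors' deposited comparison table holds p-values, log2 fold changes with standard errors, a Wald score and the mean normalised signal, per the file headers; its fold changes and adjusted p-values are quoted.

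Counts were filtered with filterByExpr, TMM-normalised and tested with edgeR 4.0.16 (quasi-likelihood F test, robust, all 12 tumours, Benjamini-Hochberg threshold 0.05; R 4.3.3). The standard error is the log2 fold change over the square root of F. Log2 CPM used a prior count of 2, and the Slc4a1 ratio a pseudocount of 0.5. Correlations and ratios were tested by permutation (scipy 1.17.1). Depth was 58096172 to 83296370 counts. In a simulation of the genotype comparison (17771 genes, 6 against 6), 43.6% of genes changed by 1 on the log2 scale and 86.7% of those changed by 2 were recovered, and 5 unchanged genes were called. The changed genes were drawn at random, while the members' spread within genotypes exceeded that of 77.7% (Alas2) to 97.3% (Slc4a1) of genes tested. The recovered shares therefore do not describe the members.

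The members and gene lists were chosen with earlier results of these data known. Text names the 6 members, the embryonic globins, from each list the 4 genes with the smallest p for genotype or for the slope on Hbb-bs (not all are printed) and any call, and the 10 genes most like the members by correlation, leaving out predicted models and pseudogenes. Some genes that this rule takes are not reported here. Genes named for low counts, with Pf4, Pecam1, Klf1, Tal1 and the overlapping Apex2, stand outside that rule. Alternatives were DESeq2 1.42.0, its size factors in edgeR, TMM without the members, the filter dropped or set to 1 CPM in 6 tumours, end-point age, a non-robust dispersion, the replicate number as a block, Hbb-bs as a covariate, and each tumour left out. Sequences come from GENCODE M21 (GRCm38) and RefSeq (GRCm38.p6).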

Additional observations from a re-analysis of the deposited data

Results flagged for a closer look

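Of 28 groups of 6 tumours examined for a tumour far from the others, 1 was picked out, and chance picks out about 1 in 20 such groups. Bad3SA 5 had 0.5125 Slc4a1 counts per 1000 globin counts, with a pseudocount of 0.5 on Slc4a1, while the 6 Bad3SA tumours ran up to 3.09. On the log2 scale its gap to the nearest Bad3SA tumour was 0.735 of the range of the group, above Dixon's critical value at the 95% level. The value rests on 2 Slc4a1 counts, which is under the floor of 3 counts, in the Bad3SA library with the fewest counts.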

How the results depend on the processing

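No member was called under any alternative run, and every member kept a log2 fold change above 0 except under the Hbb-bs covariate. Slc4a1 gave no value at 1 CPM or more in 6 tumours. The 249 genes called became 998 with DESeq2, 163 with at least 1 CPM, 73 with age and 105 with the replicate block, and 147 to 315 with single tumours left out. Leaving tumours out, the log2 fold change of Hbb-bs ran from 1.17 to 1.54. The log2 difference of the alpha to beta ratio then ran from -0.23 to -0.13, that of the Hbb-bt share from -0.0644 to 0.0146, that of the Alas2 ratio from -0.78 to -0.42 and that of the Slc4a1 ratio from -0.41 to 0.63. With medians in place of means, the Hbb-bt share differed by 0.0484 and the Slc4a1 ratio by -0.0105. Calls for the slope on Hbb-bs numbered 1 without the genotype term, 399 with Alas2 in its place, and 0 to 56 with tumours left out. On the CPM scale the correlation of Hbb-bt with age was -0.0042. Signs turned for Cd68 (-0.0602) with the Hbb-bs covariate, and with age for Cd79b, Ighd, Esam, C1qa and Mrc1 (-0.65, -0.35, -0.0718, -0.0274 and -0.40). S100a9 turned to 0.46 with the block, and with tumours left out S100a9 ran from -1.31 to 0.89 and S100a8 from -1.21 to 0.24, each highest without Bad+/+ 4. The cause was not tested.

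Replicate numbers did not pair the tumours: deviations of same-numbered tumours correlated from -0.271 to 0.283, and only number 6 matched itself best. With the replicate block the log2 fold change of Hbb-bs was 1.49 (edgeR adjusted p = 0.375). The 12 tumours, and for Slc4a1, Hemgn and the precursor genes the low counts, limit precision.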
